A study of Homo sapiens with 8 samples.

Results

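The MYC, MAX and MLX network is a family of basic helix-loop-helix leucine zipper transcription factors. Its 10 genes were taken by symbol from the deposited count table, and all 10 were found among the 58735 genes of the table and were among the 15790 genes with enough counts to be tested. RNA was sequenced from SW480, an established human colorectal adenocarcinoma line, in 2 groups of 4 libraries each. The vector control group was infected with lentivirus carrying the empty vector, and the SPOCK1 group with lentivirus carrying SPOCK1 with a FLAG tag. SPOCK1 encodes testican-1, a secreted proteoglycan. Both groups were kept under puromycin, and the labels give neither the clonality of the cells nor separate cultures or infections for the libraries, so the p-values reflect the spread among these 8 libraries, whether technical or biological. Where a group derives from 1 infection, any other change acquired by that population and the overexpression of SPOCK1 cannot be told apart.

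Members of the network bind DNA in pairs at E-boxes, whose common form is the palindrome CACGTG. MYC pairs with MAX and activates genes of ribosome production, metabolism and division. MXD1, MXI1, MXD3, MXD4 and MNT pair with the same MAX and repress through SIN3 corepressors. MLX is the partner of the glucose-sensing factors MLXIP (also called MondoA) and MLXIPL (also called ChREBP), and it can also pair with some of the MAX repressors. In colorectal cancer MYC is a well-known target of Wnt/β-catenin signalling, the pathway to which the series title links SPOCK1.

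Libraries held 35643585 to 42812951 counts. SPOCK1 itself had 0 to 6 counts in control libraries and 6719 to 9712 in SPOCK1 libraries. Of the 7 epithelial markers checked, KRT8, KRT18, EPCAM, CDX2, VIL1 and CDH1 were expressed in both groups, and CDH1 fell by 37.2% (adjusted p = 0.00537), while KRT20 was under 0.1 CPM (read counts scaled to library size) on average in both groups. Of 9 markers of blood, endothelial and stromal cells, 3 passed the filter on low counts, none of these 3 passed the test, and LUM had no count in any library. Ribosomal RNA counts took 0.696% to 0.738% of control libraries and 0.560% to 0.671% of SPOCK1 libraries, without overlap, and the part of this difference in the results was not tested. The GC trend of each library (mean log2 deviation of GC-rich genes minus that of GC-poor genes) ran from -0.16 to 0.25 in controls and from -0.27 to 0.26 in SPOCK1 libraries, and was negative in libraries 1 and 3 and positive in libraries 2 and 4 of both groups. Values with per-library offsets on GC content and gene length are therefore given beside many results of the members and lists. A result given without them can move with them too.

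With SPOCK1, 1 of the 10 members passed the test. MLXIPL, which encodes ChREBP, fell by 38.4%, and the other 9 did not pass (edgeR quasi-likelihood test, adjusted p under 0.05). Over all genes tested 1.04% were called, 0.798% as falls and 0.247% as rises. Besides MLXIPL, the repressor MXD3 had the next smallest p, with a log2 ratio of SPOCK1 to control (the log2 fold change) of -0.37 ± 0.12 (± SE, edgeR adjusted p = 0.179). MYC, the best-known member, had a log2 ratio of 0.08 ± 0.09 (± SE, edgeR adjusted p = 0.761). The groups did not overlap in 4 members, MLXIPL, MXD3, MAX and MXD1, against 8.23% of all genes tested. Of the 10 log2 ratios 5 were positive and 5 negative, with a median of -0.01, against a median of 0.00 over all genes. The members' median lay between -0.056 and 0.033 without any 1 library and was 0.066 with the offsets, so it has no settled sign.

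**Figure D1:**
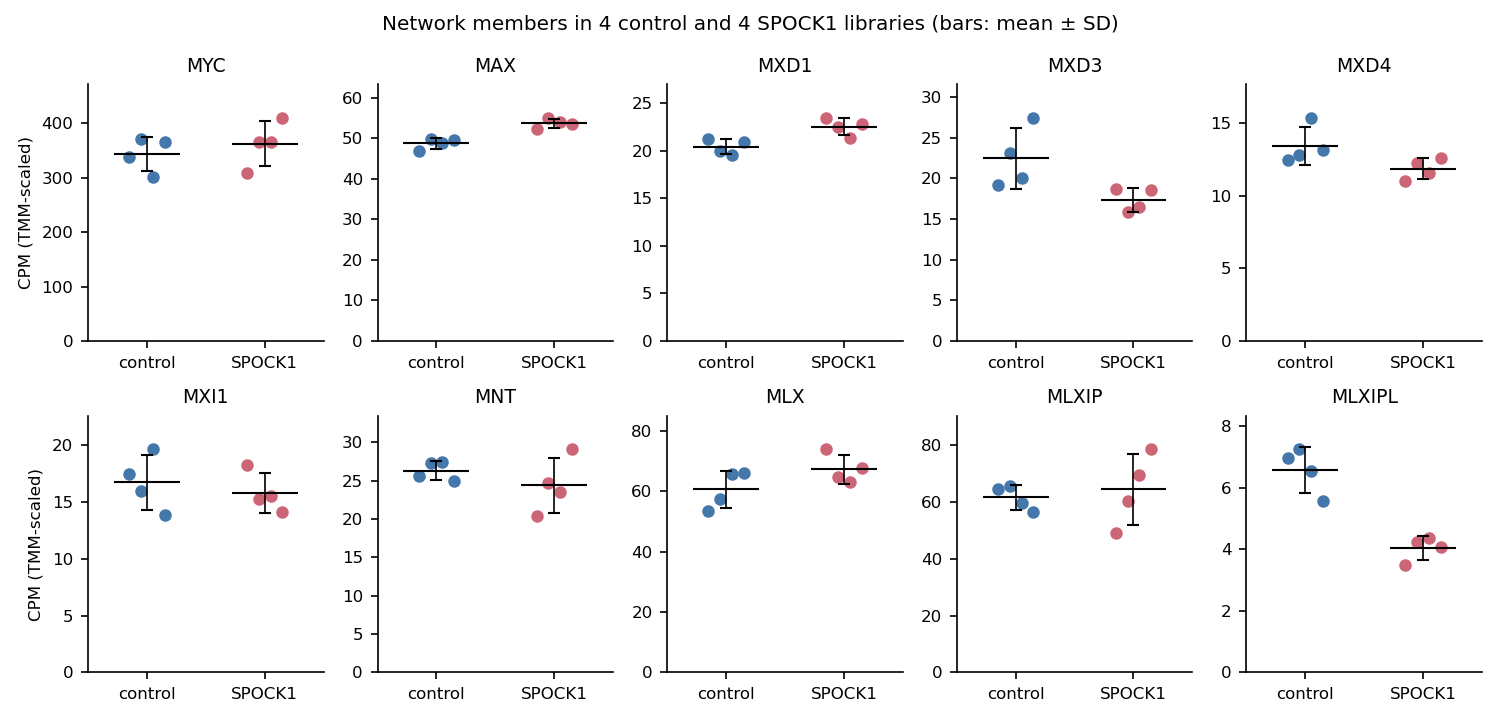
Level of each network member in CPM (y axes, each from 0) in the 4 vector control and 4 SPOCK1 libraries, with 1 point per library and bars for mean ± SD. In MLXIPL the SPOCK1 libraries lie at 3.48 to 4.37 CPM, below the controls at 5.56 to 7.24, and in MYC the groups overlap.

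Of the promoters in the RefSeq table (GRCh38.p14, 250 bases before to 50 after each start), 9 of the 10 members had at least 1, MYC being the other. CACGTG, which reads the same on both strands, was found in 3 of these 9 members, MXD4, MNT and MLX, and in 8.77% of the 27305 genes of the table. The 3 matches are shown because they are the letters to which the network itself binds, and the promoter of MLXIPL because that gene is the member that changed. Capitals mark CACGTG, and positions are counted from the start, with negative numbers before it.
MXD4 (chr4:2262300-2262359, minus strand, -250 to -191): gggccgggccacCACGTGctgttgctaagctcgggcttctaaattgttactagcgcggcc
MNT (chr17:2401224-2401283, minus strand, -223 to -164): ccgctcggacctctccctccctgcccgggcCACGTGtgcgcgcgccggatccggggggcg
MLX (chr17:42567020-42567079, plus strand, -80 to -21): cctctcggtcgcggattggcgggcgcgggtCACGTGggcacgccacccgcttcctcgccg
MLXIPL (chr7:73624523-73624642, minus strand, -120 to -1): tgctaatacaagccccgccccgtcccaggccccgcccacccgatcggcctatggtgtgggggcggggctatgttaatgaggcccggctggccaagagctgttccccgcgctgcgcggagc
The MLXIPL window held no CACGTG, which says only that these letters are not in it. A match is a description of the sequence and not evidence of binding. None of MXD4, MNT and MLX, the members with a match, passed the test.

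MYC (ENSG00000136997, chromosome 8, 127735434 to 127741434, plus strand) was the most abundant member, also per kilobase. It stood at 338, 371, 302 and 366 CPM in control libraries 1 to 4, and at 309, 365, 366 and 410 CPM in SPOCK1 libraries 1 to 4. The lowest values of both groups were close to each other, and the highest was SPOCK1 library 4. The mean was 344 ± 31.7 CPM in controls and 362 ± 41.5 with SPOCK1 (SD, 4 libraries each). The 95% interval of the log2 ratio ran from -0.12 to 0.27, so the depth and spread leave room for a change in either direction of that size. Leaving out 1 library moved it from 0.08 to 0.013 without SPOCK1 library 4, 0.019 without control library 3 and 0.14 without SPOCK1 library 1, and it passed the test in none of these fits. The log2 ratio was 0.10 ± 0.08 with offsets for GC content and length (± SE, edgeR adjusted p = 0.488). Among tested genes MYC held place 435 by mean CPM. The long noncoding RNA PVT1, which lies next to MYC on chromosome 8, had a mean of 22.9 ± 2.10 CPM in controls and 23.9 ± 2.83 with SPOCK1 (SD, 4 libraries each), with a log2 ratio of 0.06 ± 0.11 (± SE, edgeR adjusted p = 0.842). FAM84B, a listed gene on the other side of MYC, lies further off, ending at position 126558393. Its log2 ratio was -0.23 ± 0.12 (± SE, edgeR adjusted p = 0.417). FAM84B overlaps PCAT1 over 21.5% of its exonic bases. Of the 7 listed neighbours of MYC, 6 were found, 3 had enough counts to be tested, and edgeR called 0 of these, as did DESeq2 and limma-voom, with 0 at an unadjusted p under 0.05.

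MAX (ENSG00000125952, chromosome 14, 65006174 to 65102695, minus strand), the shared partner of MYC and the repressors, varied little between libraries. It stood at 46.8, 49.8, 48.8 and 49.5 CPM in control libraries 1 to 4, and at 52.3, 55.0, 54.0 and 53.4 CPM in SPOCK1 libraries 1 to 4. Every SPOCK1 library lay above every control. The difference was small, from 48.7 ± 1.38 to 53.7 ± 1.11 CPM (SD, 4 libraries each), and the log2 ratio of 0.14 ± 0.08 did not pass the test (± SE, edgeR adjusted p = 0.448). Its 95% interval ran from -0.02 to 0.30. With offsets for GC content and length the value was 0.16 ± 0.06 (± SE, edgeR adjusted p = 0.148).

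Among the repressors that pair with MAX, MXD3 had the lowest value relative to controls. MXD3 (ENSG00000213347, chromosome 5, 177301461 to 177312757, minus strand), a MAD family repressor linked to cells in cycle, stood at 19.2, 23.2, 20.1 and 27.4 CPM in control libraries 1 to 4, and at 18.6, 15.8, 16.4 and 18.5 CPM in SPOCK1 libraries 1 to 4. The groups did not overlap, but control library 1 and SPOCK1 library 1 were near each other, and the control spread was wide, at an SD of 3.72 against 1.44 CPM. The unadjusted p was 0.00677 and the adjusted p 0.179, and without any 1 library the log2 ratio lay between -0.44 and -0.26. MXD3 is 61.3% GC, and with offsets for GC content and length its log2 ratio was -0.26 ± 0.10 (± SE, edgeR adjusted p = 0.164). With libraries 2 and 4 of each group alone it was -0.56 and passed the test (adjusted p = 0.0212), while with libraries 1 and 3 alone it was -0.16 and did not (adjusted p = 0.677). Exons of PRELID1, on the other strand and at 367 CPM in controls, cover 22.5% of the exonic bases of MXD3, and those of RAB24, on the same strand, 18%. The strand setting of the counting is not given in the sources used here, so reads in these stretches cannot be assigned. PRELID1 and RAB24 had log2 ratios of 0.12 ± 0.10 and 0.09 ± 0.14 (± SE, edgeR adjusted p = 0.641 and 0.821).

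The other repressors did not pass the test in either direction. MXD1 (MAD1), typical of differentiating cells, stood at 19.6 to 21.2 CPM in controls and 21.3 to 23.5 CPM with SPOCK1, ranges that only just miss each other, with a log2 ratio of 0.14 ± 0.09 (± SE, edgeR adjusted p = 0.529). MXD1 shares 3.73% of its exonic bases with SNRNP27. MXD4, a further MAD family repressor, stood at 12.4 to 15.4 CPM in controls and 11.0 to 12.6 CPM with SPOCK1, with a log2 ratio of -0.18 ± 0.11 (± SE, edgeR adjusted p = 0.507), which was -0.085 with offsets for GC content and length (adjusted p = 0.687) and -0.11 without control library 3. MXI1 (MXD2) stood at 13.9 to 19.6 CPM in controls and 14.1 to 18.2 CPM with SPOCK1, so the groups lay over each other, and the log2 ratio was -0.08 ± 0.12 (± SE, edgeR adjusted p = 0.810). MNT, the most widely expressed of the repressors, stood at 24.9 to 27.4 CPM in controls and spread over 20.4 to 29.05 CPM with SPOCK1. Its log2 ratio of -0.11 ± 0.11 (± SE, edgeR adjusted p = 0.706) turned to 0.028 with offsets for GC content and length, at a GC content of 61.4%, and that of MXI1 to 0.0024 without control library 3, so neither has a settled sign.

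MLX (ENSG00000108788, chromosome 17, 42567068 to 42573239, plus strand), the partner of both glucose-sensing factors, stood at 53.7, 57.6, 65.6 and 65.9 CPM in control libraries 1 to 4 and at 73.9, 64.8, 63.0 and 67.7 CPM in SPOCK1 libraries 1 to 4. SPOCK1 library 1 was the highest, and the other SPOCK1 libraries overlapped the controls. The log2 ratio was 0.15 ± 0.09 (± SE, edgeR adjusted p = 0.491), with a 95% interval from -0.04 to 0.34. It was 0.17 ± 0.08 with offsets for GC content and length (± SE, edgeR adjusted p = 0.212). PSMC3IP covers 18.1% of the exonic bases of MLX on the other strand and had a log2 ratio of -0.02 ± 0.13 (± SE, edgeR adjusted p = 0.958).

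MLXIP (ENSG00000175727, chromosome 12, 122078722 to 122147347, plus strand), which encodes MondoA, was the more abundant of the glucose sensors, also per kilobase. It stood at 64.6, 65.6, 59.6 and 56.5 CPM in control libraries 1 to 4 and at 49.2, 60.5, 69.5 and 78.5 CPM in SPOCK1 libraries 1 to 4. The SPOCK1 libraries reached both below and above the controls, with an SD of 12.5 against 4.31 CPM (n = 4 each). The log2 ratio was 0.06 ± 0.12 (± SE, edgeR adjusted p = 0.851). It turned to -0.042 without SPOCK1 library 4 and was 0.21 ± 0.07 with offsets for GC content and length (± SE, edgeR adjusted p = 0.116), so no direction is given for MLXIP.

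MLXIPL (ENSG00000009950, chromosome 7, 73593194 to 73624543, minus strand) was the least abundant member, also per kilobase, and the member that fell. ChREBP, its product, drives genes of glycolysis and fatty acid synthesis when glucose is high and is best known from liver and gut. Its deposited counts were 266, 268, 243 and 228 in controls 1 to 4, against 130, 149, 189 and 143 with SPOCK1, again in libraries 1 to 4. On scaled library sizes these were 6.95, 7.24, 6.55 and 5.56 CPM in controls, and 3.48, 4.25, 4.37 and 4.08 CPM with SPOCK1. The highest SPOCK1 library lay below the lowest control. The mean was 6.58 ± 0.733 CPM in controls and 4.04 ± 0.395 CPM with SPOCK1 (SD of 4 libraries each), a log2 ratio of -0.70 ± 0.15 (SE, 95% interval -1.01 to -0.39, adjusted p = 0.0247). Its p held place 109 among the genes tested. In bulk RNA, fewer cells that express MLXIPL and less of its RNA per cell cannot be told apart.

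The size of the fall varied little when a library was left out, while the call did not hold throughout. Without any 1 library the log2 ratio of MLXIPL lay between -0.77 and -0.64, while the adjusted p lay between 0.0256 and 0.0982. Fits that left out control 1, control 2, SPOCK1 1, SPOCK1 2 or SPOCK1 3 no longer called it, at adjusted p of 0.0749, 0.0982, 0.0655, 0.0655 and 0.0571. The call also ended when replicate numbers were blocked (-0.70, adjusted p = 0.0609) and with only libraries 1 and 3 (-0.78, adjusted p = 0.322) or 2 and 4 (-0.62, adjusted p = 0.170) of each group. MLXIPL is 63.5% GC, the highest of the members, and with offsets for GC content and length the log2 ratio was -0.59 ± 0.14 (± SE, edgeR adjusted p = 0.0273). With these offsets 3.94% of all genes were called, 367 as rises and 255 as falls, against 39 and 126 without them, and MLXIPL was still the 1 member called. DESeq2 too called MLXIPL and no other member (adjusted p = 0.00137), and called 2.73% of the genes to which it gave an adjusted p.

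**Figure D2:**
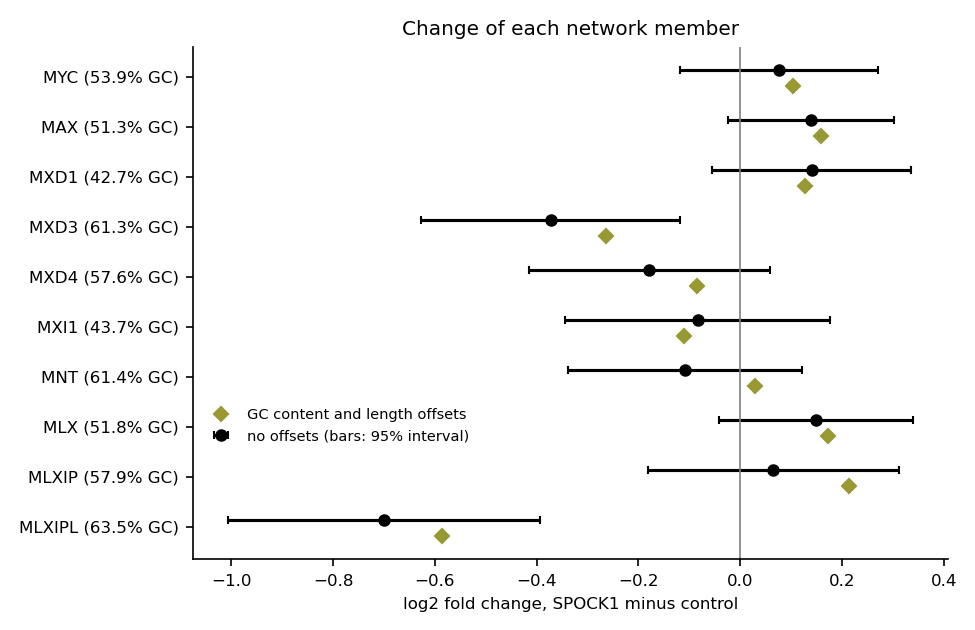
Log2 ratio of each member, SPOCK1 minus control (x axis), with 95% intervals from the edgeR fit in black and the value with offsets for GC content and length as diamonds. GC content of the longest transcript is given beside each name. The intervals of MLXIPL (-1.01 to -0.39) and MXD3 (-0.63 to -0.12) exclude 0 before adjustment, and the others include it.

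Levels of different members were compared in CPM per kilobase of the deposited gene length, the union of a gene's annotated exons. In controls MYC stood at 114.6 ± 10.6, MLX at 14.3 ± 1.43 and MAX at 11.0 ± 0.311 CPM per kilobase (SD, 4 libraries each), with no overlap between neighbours in this order. MLXIP at 4.43 ± 0.310 and MXD3 at 4.36 ± 0.722 CPM per kilobase overlapped. MXI1 at 3.63 ± 0.526, MXD1 at 3.22 ± 0.121 and MNT at 3.01 ± 0.143 CPM per kilobase followed, each overlapping the gene before it. MXD4 at 1.90 ± 0.186 and MLXIPL at 1.37 ± 0.152 CPM per kilobase closed the order, separate from each other and from MNT. MYC transcripts were thus 10.4 ± 0.876 times as abundant per length as MAX in controls and 9.96 ± 1.07 times with SPOCK1 (SD, 4 libraries each), with overlap between the groups. The union of exons is longer than any transcript, and with the length of the longest transcript the first 3 and last 2 places stood while MXD3 passed MLXIP and MNT passed MXI1 and MXD1.

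Within the MAX partners, MYC made up 85.9% to 88.5% of the summed level per kilobase of MYC, the MXD genes, MXI1 and MNT in controls and 87.1% to 89.9% with SPOCK1, overlapping ranges. The summed level of the 5 repressors alone was 15.5 to 16.5 CPM per kilobase in controls and 14.2 to 15.4 with SPOCK1. Without division by length these sums overlapped, at 95.8 to 102 and 88.3 to 97.1 CPM. Of the glucose sensors, MLXIP made up 75.8% to 77.9% of the level of MLXIP and MLXIPL together in controls and 83.05% to 86.96% with SPOCK1. These shares contain the values of the members given above and are descriptions without a test.

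**Figure D3:**
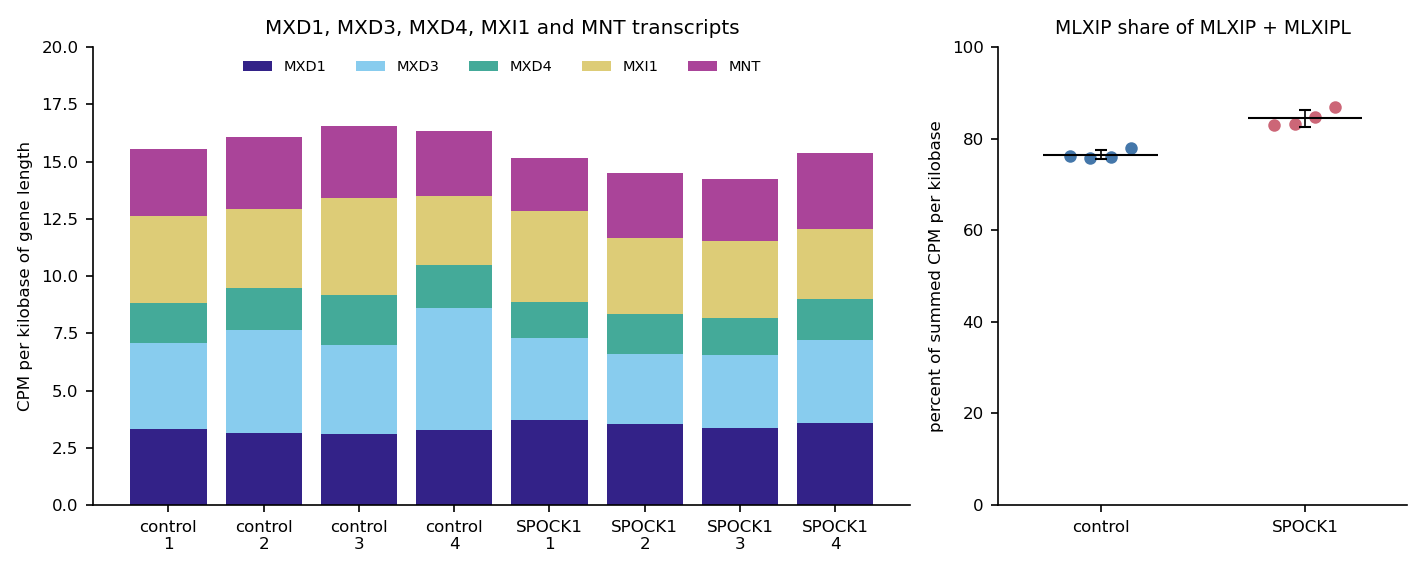
Left, stacked levels of the 5 repressor transcripts in CPM per kilobase in each library, which sum to 15.5 to 16.5 in controls and 14.2 to 15.4 with SPOCK1. Right, the MLXIP share of MLXIP and MLXIPL per library (points, with mean ± SD), 76.5% ± 0.945 in controls and 84.4% ± 1.83 with SPOCK1 (n = 4 each).

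The MYC paralog MYCL (ENSG00000116990, chromosome 1, 39895426 to 39902256, minus strand), which encodes L-MYC and also pairs with MAX, fell by 32.2%. It stood at 25.03, 22.8, 23.2 and 26.3 CPM in control libraries 1 to 4 and at 14.9, 15.9, 18.5 and 16.6 CPM in SPOCK1 libraries 1 to 4, without overlap. The log2 ratio was -0.56 ± 0.10 (± SE, edgeR adjusted p = 0.0104), and -0.51 with offsets for GC content and length (adjusted p = 0.00341). The call was lost without SPOCK1 library 2 (adjusted p = 0.0540). MGA, a large MAX partner of Polycomb complexes, had a log2 ratio of -0.12 ± 0.15 (± SE, edgeR adjusted p = 0.761), or -0.024 with the offsets, and MYCN was under 0.1 CPM on average in both groups and was not tested.

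Cofactors and regulators of MYC protein did not pass the test. Of 23 cofactors of MYC and the MXD repressors edgeR called 0, limma-voom 0 and DESeq2 1, with 3 at an unadjusted p under 0.05. These 3 are 13% of the list, near the 13.7% of all genes tested. TFDP1, the E2F partner found with MGA in Polycomb complexes, had a mean of 187 ± 3.07 CPM in controls and 220.3 ± 7.56 with SPOCK1 (SD, 4 libraries each), with a log2 ratio of 0.23 ± 0.07 (± SE, edgeR adjusted p = 0.127). With offsets for GC content and length it passed, at 0.21 (adjusted p = 0.0397). SIN3A, the corepressor scaffold recruited by MXD proteins, had a log2 ratio of -0.29 ± 0.10 (± SE, edgeR adjusted p = 0.244). Of 19 regulators of MYC turnover edgeR, DESeq2 and limma-voom called 0, with 0 at an unadjusted p under 0.05. The smallest p were those of PPP2CA, a catalytic subunit of the phosphatase PP2A, and PIM1, a kinase that stabilises MYC, at log2 ratios of 0.18 ± 0.10 and -0.15 ± 0.10 (± SE, edgeR adjusted p = 0.439 and 0.510). With offsets for GC content and length 1 regulator was called, the scaffold AXIN1, at 0.21 (adjusted p = 0.0388), chosen here after its values were seen.

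Among genes that MYC is known to activate, most log2 ratios were small and positive. Of 57 nucleolar and growth targets 55 were tested, and 46 had a log2 ratio above 0 and 9 below, the median being 0.13 (0.12 to 0.14 without any 1 library) against 0.00 over all genes. Over all genes tested 7761 of 15790 log2 ratios were above 0, and edgeR called 1.04%. By edgeR 0 of the 55 were called, by limma-voom 0 and by DESeq2 4, and 14 had an unadjusted p under 0.05, 13 higher and 1 lower, which is 25.5% against 13.7% of all genes. NOP16, a nucleolar protein, had a mean of 68.1 ± 4.44 CPM in controls and 85.6 ± 6.96 with SPOCK1 (SD, 4 libraries each), a log2 ratio of 0.33 ± 0.08 (± SE, edgeR adjusted p = 0.0790). NIP7, a factor of ribosomal subunit assembly, had a log2 ratio of 0.38 ± 0.10 (± SE, edgeR adjusted p = 0.0843). NOP16 and NIP7 share exonic bases with ARL10 and COG8. With offsets for GC content and length 15 of the 55 were called as rises and 0 as falls, against 2.32% rises and 1.61% falls over all genes, and the median was 0.17 against 0.03. NOP2 and IPO4, which were not tested, share 54.4% and 69.3% of their exonic bases with another annotated gene of the same strand.

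ODC1 was the listed MYC target that rose. ODC1 (ENSG00000115758, chromosome 2, 10439968 to 10448504, minus strand), ornithine decarboxylase, the first enzyme of polyamine synthesis, stood at 677, 723, 727 and 748 CPM in control libraries 1 to 4 and at 969.7, 963, 902 and 914 CPM in SPOCK1 libraries 1 to 4. Every SPOCK1 library lay well above every control. The log2 ratio was 0.38 ± 0.07 (± SE, edgeR adjusted p = 0.0104), a rise of 30.4%, and 0.39 with offsets for GC content and length (adjusted p = 3.96e-04). The call was lost without SPOCK1 library 2 (adjusted p = 0.0655). ODC1 was the 1 gene called of 25 tested targets of metabolism and the cell cycle, of which 18 had a positive log2 ratio, with a median of 0.09, or 0.15 with the offsets. Over all genes tested 1.04% were called, 0.247% as rises, and 7761 of 15790 log2 ratios were positive. The median over all genes was 0.00, or 0.03 with the offsets. Of these 25, 10 had an unadjusted p under 0.05, 9 of them higher, which is 40% against 13.7% of all genes. SRM, spermidine synthase, which follows ODC1 in the polyamine pathway and is named after looking at its values, had a log2 ratio of 0.23 ± 0.08 (± SE, edgeR adjusted p = 0.218), and 0.32 with the offsets (adjusted p = 0.00311). SRM, NPM1, CDK4 and HSPD1 stand in both lists of MYC targets. SRM and NPM1 count in both shares at an unadjusted p under 0.05, so these shares are not separate.

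CACGTG was found in the promoters of 25 of the 47 nucleolar and growth targets present in the RefSeq table, 53.2%, and in 10 of 22 targets of metabolism and the cell cycle, 45.5%, against 8.77% of all genes. These lists were assembled as MYC targets, so the shares describe the lists and not the response. ODC1 is shown because it is the target that rose and holds 2 matches, at -29 and 6, with CACGTG in capitals. The stretch lies inside ODC1 as counted, which reaches to position 10448504, so this RefSeq start is not the outermost annotated start.
ODC1 (chr2:10447988-10448057, minus strand, -45 to 25): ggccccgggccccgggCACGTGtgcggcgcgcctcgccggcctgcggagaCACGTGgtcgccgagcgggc

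Among 10 tested genes that MYC is known to repress, 1 rose and 1 fell, and the median log2 ratio was -0.09, against 0.247% rises, 0.798% falls and a median of 0.00 over all genes tested. Without any 1 library the median of these 10 lay between -0.15 and -0.045. It was -0.060 with offsets for GC content and length, against 0.030 over all genes. CDKN1C, the cell cycle inhibitor p57, stood at 23.3, 28.3, 25.3 and 25.6 CPM in control libraries 1 to 4 and at 17.2, 18.1, 17.3 and 19.2 CPM in SPOCK1 libraries 1 to 4, and fell by 29.8% (adjusted p = 0.0138). Leaving out control 2, SPOCK1 2 or SPOCK1 3 ended the call (adjusted p up to 0.0702), and with offsets for GC content and length the log2 ratio was -0.41 (adjusted p = 0.00551). DDIT3, which encodes the stress factor CHOP of the unfolded protein response, rose 1.77-fold (adjusted p = 0.0112). Leaving out control 1 or control 2 ended its call (adjusted p up to 0.0522). DDIT3 had a mean of 7.28 CPM in controls. It shares 27.2% of its exonic bases with MARS and 4.44% with MBD6, both on the other strand, at 440 and 48.5 CPM in controls. MARS and MBD6 had log2 ratios of 0.06 ± 0.07 and -0.14 ± 0.11 (± SE, edgeR adjusted p = 0.757 and 0.620). With the strand setting not given, reads in these stretches cannot be assigned.

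Among genes downstream of MLXIP and MLXIPL, SCD and BHLHE40 fell. Of 21 listed targets 17 were tested, 2 fell, 0 rose and 15 did not pass the test, with 14 negative log2 ratios and a median of -0.06. Over all genes tested 0.798% fell and 0.247% rose, 8029 of 15790 log2 ratios were negative, and the median was 0.00. Of the 17 targets 2 had an unadjusted edgeR p under 0.05, which is 11.8% against 13.7% of all genes. The median of the 17 lay between -0.14 and -0.024 without any 1 library. With offsets for GC content and length it was -0.039, against 0.030 over all genes. SCD, a fatty acid desaturase, stood at 967, 909, 812 and 869 CPM in control libraries 1 to 4 and at 625, 677, 664 and 704 CPM in SPOCK1 libraries 1 to 4, a fall by 24.9% (adjusted p = 0.0105, and 0.0520 without SPOCK1 library 2). BHLHE40, a repressor of the helix-loop-helix class that also binds E-boxes, fell by 25.4% (adjusted p = 0.0180), a call that ended when control 1, control 2, SPOCK1 2 or SPOCK1 3 was left out (adjusted p up to 0.0755) and when replicate numbers were blocked (adjusted p = 0.0514). SCD is also a target of SREBP factors, and BHLHE40 of several stress pathways. The other lipid enzymes ACLY, ACACA and FASN had log2 ratios of -0.11 ± 0.07, -0.06 ± 0.09 and -0.05 ± 0.11 (± SE, edgeR adjusted p = 0.535, 0.804 and 0.883). With offsets for GC content and length ACACA turned to 0.019 and FASN to 0.12.

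TXNIP and ARRDC4, arrestin-like proteins that restrain glucose uptake, are the defining targets of MLXIP. TXNIP stood at 28.4, 29.3, 30.2 and 26.0 CPM in control libraries 1 to 4 and at 33.4, 33.7, 32.0 and 29.7 CPM in SPOCK1 libraries 1 to 4, with SPOCK1 library 4 inside the control range. Its log2 ratio was 0.18 ± 0.09 (± SE, edgeR adjusted p = 0.413). ARRDC4 was low, at 1.89 ± 0.468 and 1.93 ± 0.316 CPM (SD, 4 libraries each), with a log2 ratio of 0.03 ± 0.23 (± SE, edgeR adjusted p = 0.968), which was -0.00042 with the offsets. A carbohydrate response element is a pair of E-box-like motifs set 5 bases apart, searched here on both strands as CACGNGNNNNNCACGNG, where N is any base. It was found in 1 of 14 listed targets in the RefSeq table, TXNIP, and in 20 of 27305 genes, 0.0732% (20 of 35116 promoters, 0.0570%). This pattern requires both motifs in the same orientation, within 250 bases before to 50 after a start. Elements of another form or place are missed, so no match does not mean that a target lacks an element. The match in TXNIP is shown because it is of the site class through which MLX pairs are known to act, with the paired motifs in capitals.
TXNIP (chr1:145996630-145996689, minus strand, -110 to -51): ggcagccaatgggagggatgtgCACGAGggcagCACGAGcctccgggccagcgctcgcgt

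**Figure D4:**
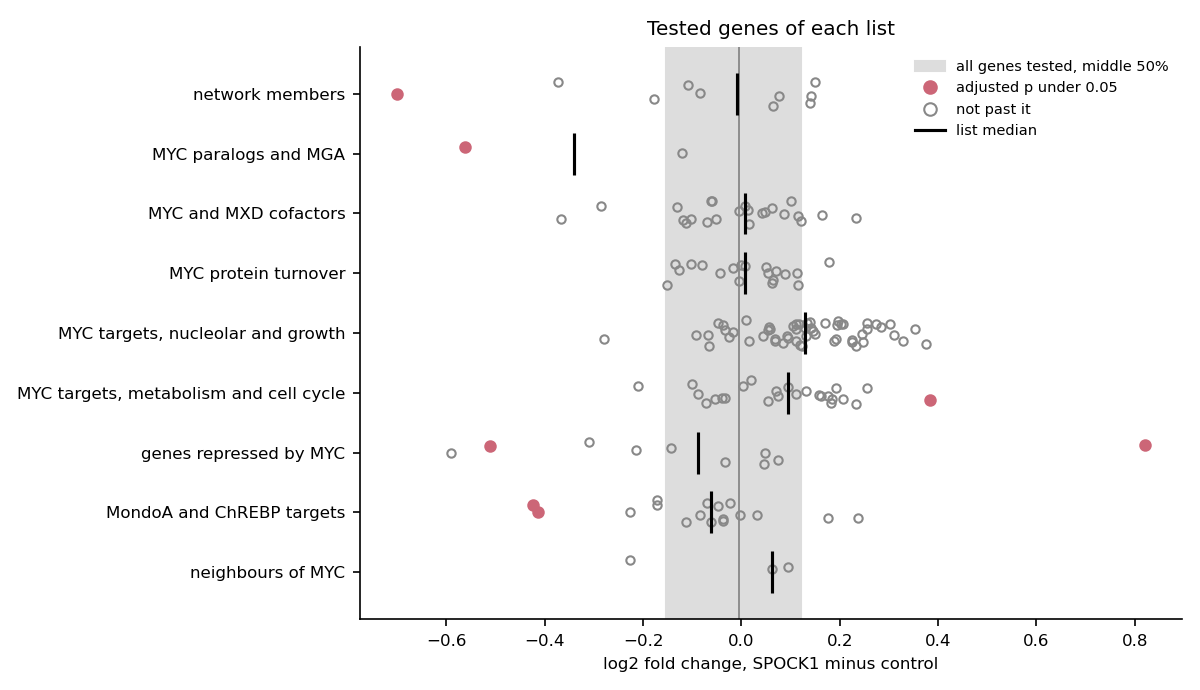
Log2 ratio, SPOCK1 minus control (x axis), of every tested gene of each list, with called genes filled, list medians as black bars and the middle 50% of all genes tested shaded. The 55 nucleolar and growth targets have a median of 0.13 with 0 called, and the network members a median of -0.01 with MLXIPL called.

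**Figure D5:**
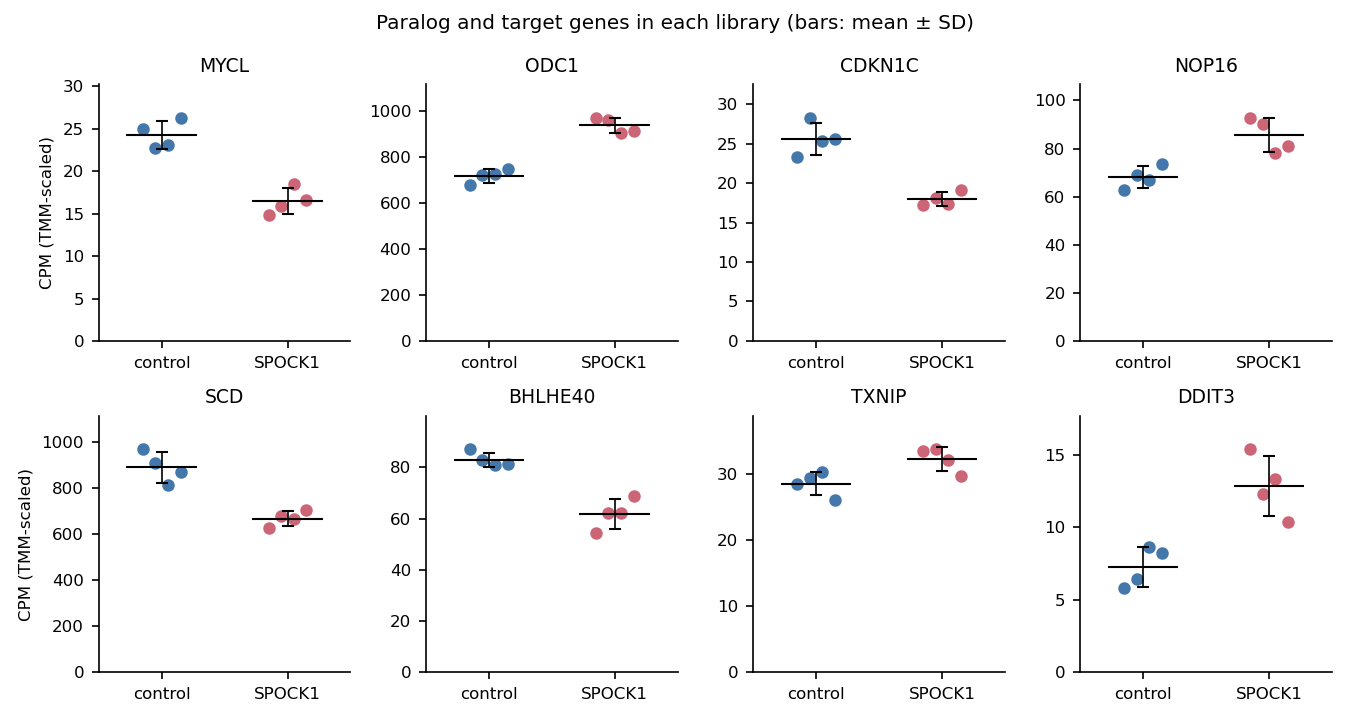
CPM (y axes, each from 0) of the paralog MYCL and 7 target genes in each library, with bars for mean ± SD. The groups are separate for MYCL, ODC1, CDKN1C, NOP16, SCD, BHLHE40 and DDIT3 and overlap for TXNIP, where 1 SPOCK1 library lies at 29.7 CPM within the control range.

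By pattern over the 8 libraries, measured as the root mean square difference of log2 CPM deviations from each gene's own mean, the genes most like MLXIPL among 10344 at a mean of at least 5 CPM were NR4A1, OLMALINC and PNRC1, at 0.10, 0.11 and 0.11. The median over these genes was 0.40. NR4A1, an orphan nuclear receptor, OLMALINC, a long noncoding RNA, and PNRC1, a nuclear receptor coactivator, had log2 ratios of -0.59, -0.65 and -0.61. Genes were ranked on all 8 libraries, the difference between the groups included, so these ratios follow from the choice and are given without a test. The genes most like MXD3 were TCEA2, LINC01124 and ARID5A, at 0.07, 0.07 and 0.08, with a median of 0.28 over all genes compared. The genes most like MAX were CDC25A, ATP1B3 and FDX1, at 0.02, 0.02 and 0.03, with a median of 0.16. CDC25A, a phosphatase that starts the cell cycle and itself a listed MYC target, had a mean of 78.5 ± 2.48 CPM in controls and 87.6 ± 1.87 with SPOCK1 (SD, 4 libraries each). Its log2 ratio of 0.16 ± 0.07 did not pass the test (± SE, edgeR adjusted p = 0.352). CDC25A too was chosen on all 8 libraries, so its difference between the groups follows from the choice.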

How the data were processed

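RNA was measured in 8 SW480 libraries, grouped by their titles. The deposited values are whole-number read counts per gene. The submitters' processing notes list CASAVA, HISAT2 2.0.5 and, for counting, featureCounts 1.5.0-p3. Genome build, strand setting and handling of multiply matching reads: not given in the sources used here. Gene length, start, end and strand beside the counts were identical to GENCODE release 29 for 58735 genes. Genes passing filterByExpr (minimum count 10, minimum total 15) were compared with the edgeR 4.0.16 quasi-likelihood test in R 4.3.3, with TMM factors and no covariates. Adjustment was by Benjamini-Hochberg over 15790 genes, with 0.05 as threshold. Standard errors came from the F statistic and 95% intervals from its degrees of freedom. The test was checked on simulated data. The alternatives were other scaling factors (RLE, upper quartile), DESeq2 1.42.0, voom from limma 3.58.1, other filters, a replicate block, offsets for GC content and length (splines of 5 degrees of freedom), each library left out, and libraries 1 and 3 or 2 and 4 alone.

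The members and gene lists were chosen with earlier results of these data known. Of 191 list entries 190 were matched by symbol. Genes named were the members, in each other list the genes past the threshold (at most 5 per direction) or otherwise the 2 with the smallest p, TXNIP, ARRDC4 and PVT1, and for the 3 members with the smallest p the 3 most similar genes. Other named genes were chosen after their values were seen.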

Additional observations from a re-analysis of the deposited data

Results flagged for a closer look

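Of 58 groups of 4 libraries checked for a library far from the others (2 groups for each gene named by rule), 3 held 1. Chance gives about 1 in 20 groups. SIN3A stood at 36.47 CPM in SPOCK1 library 1, against 47.5 CPM in the nearest other library of its group. PVT1 stood at 26.01 CPM in control library 3, against 22.3 CPM in the nearest other control. COL1A1, a stromal collagen named by the rule from the list of other cell types, stood at 0.4278 CPM in SPOCK1 library 2, against 0.684 CPM in the nearest other SPOCK1 library. No network member had such a library in either group.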

How the results depend on the processing

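Over 18 alternatives MYC, MAX, MXD1, MXD3, MXD4, MLX and MLXIPL kept their sign. MXI1 reversed without control library 3 (0.0024, and -0.16 to 0.0024 without any 1 library). MNT reversed with offsets for GC content and length (0.028) and with libraries 2 and 4 alone (0.038). MLXIP reversed without SPOCK1 library 4 (-0.042 to 0.17 without any 1 library) and with libraries 1 and 3 alone (-0.063). MLXIPL was called under 10 of the 18, and its log2 fold change without any 1 library lay between -0.77 and -0.64. It was not called with libraries 1 and 3 alone (-0.78, adjusted p = 0.322), libraries 2 and 4 alone (-0.62, adjusted p = 0.170), where fewer samples were fitted, or the replicate block (-0.70, adjusted p = 0.0609), for which the cause was not tested. MXD3 was called under 1 alternative. The replicate numbers gave no clear pairing. Deviations from group means correlated at -0.159, 0.0902, 0.113 and 0.176 for numbers 1 to 4. Not every library correlated best with its own number: control 3 with SPOCK1 1 gave 0.352, control 1 with SPOCK1 3 0.269 and control 2 with SPOCK1 4 0.253. Libraries 1 and 3 of either group correlated negatively with libraries 2 and 4 of the other, from -0.347 to -0.00467. The GC trend divides the libraries in the same way. A block of libraries 1 and 3 against 2 and 4 was not fitted. With the replicate block 0 members and 1 MondoA and ChREBP target were called.

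Counts of calls moved as follows, and the cause was not tested. Over the whole table they were 165, against 398 with DESeq2, 415 with no filter beyond 1 count, 622 with offsets for GC content and length, 8 with libraries 1 and 3 alone and 89 to 237 without any 1 library. With the offsets 1 cofactor, 1 turnover regulator, 15 nucleolar and 2 metabolic targets were called. DESeq2 called 1 cofactor and 4 nucleolar targets, and the fit with no filter beyond 1 count also called 4 nucleolar targets. With libraries 1 and 3 alone 0 members, 0 paralogs, 0 metabolic targets, 0 repressed genes and 0 MondoA and ChREBP targets were called, and with libraries 2 and 4 alone 1 repressed gene and 1 MondoA and ChREBP target. Without any 1 library calls were 0 to 1 for members, paralogs and metabolic targets, and 0 to 2 for nucleolar targets, repressed genes and MondoA and ChREBP targets. The MYC share of the sum of MYC, the MXD genes, MXI1 and MNT in controls was 77.5% without division by length and 84.4% by longest transcript, a choice made after seeing the data.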
